A study of Danio rerio with 16 samples.

Results

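The genes described here are prph2b, rom1a, rom1b and rs1a, which encode structural and adhesion proteins of the photoreceptor outer segment and the retina. They were chosen by their fold changes, since the authors had listed probes for them as changed after deiodinase knockdown in the heads of zebrafish larvae. All 7 listed probes whose RefSeq accession matched 1 of these 4 symbols were taken, out of 478 listed probes that matched 333 gene symbols and out of 20080 probes with deposited fold changes. The array carries more probes than these, and "all probes" below means the 20080. The matches were 1 probe for prph2b (NM_131567), 2 for rom1a (NM_200794), 3 for rom1b (NM_201014) and 1 for rs1a (NM_001003438). The fold changes are therefore given below as a description, with their errors and with no test.

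The larvae were of the wild-type WIK strain and were sampled at 72 hours post fertilization (hpf). They had been injected into the yolk at an early cleavage stage with a morpholino, an antisense oligonucleotide that blocks translation for a limited time. SCMO larvae received a standard control morpholino, D1D2MO larvae a mixture against deiodinases 1 and 2, and D3MO larvae a morpholino against dio3b, one of the zebrafish genes for deiodinase 3. Deiodinases 1 and 2 make the active thyroid hormone T3, and deiodinase 3 inactivates it. Each condition had 4 pools of 20 heads, so a value is an average over whole heads, in which the eyes are a part. The 12 pools were compared on 16 arrays with 2 colours, 6 that paired D1D2MO with SCMO, 6 that paired D3MO with SCMO and 4 that paired the knockdowns. In each set the dyes were turned on an equal number of arrays. Values per array or pool were not analysed here. The log2 fold changes are those of the authors' own fit as deposited. The standard errors (SE) and 95% intervals were recovered from its p-values, and 4 pools per condition limit their precision. The paper does not state how the fit treated arrays that share a pool. The fit had 7.79 degrees of freedom, fewer than 16 separate arrays would leave with only the 3 conditions fitted. The reason is not stated, and the fit may have held further terms. If these were terms for single pools, the SE holds the spread between arrays and leaves out that between pools. How far the SE covers the spread between pools is thus not known, and the intervals may be too narrow. The same limit holds where intervals are compared below.

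The outer segment of a rod or cone is a stack of membrane discs packed with opsin. The sharply curved rim of each disc is shaped by peripherin-2 and its relative ROM1, tetraspanin membrane proteins that assemble into joint complexes. Without peripherin-2, mice form no outer segments, and in humans variants of PRPH2 cause retinitis pigmentosa and macular dystrophies. Zebrafish carry a pair of genes for each protein, prph2a and prph2b, and rom1a and rom1b. Retinoschisin, the product of rs1a, is a secreted protein with a discoidin domain that photoreceptors and bipolar cells release and that holds retinal layers together.

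All 4 genes were lower in both knockdowns, and lower in D3MO than in D1D2MO. Over the 7 probes the log2 fold change against SCMO had a median of -0.62 in D1D2MO, with a range from -1.04 to -0.42. In D3MO it had a median of -1.61, with a range from -2.22 to -1.09. The medians over all 20080 probes were 0.0044 and -0.0023. A probe was called where its adjusted p was under 0.05 and its change over 1.5-fold, which is 0.585 on the log2 scale. By this call 4 of the 7 probes, from 3 of the 4 genes, fell in D1D2MO, where 0.652% of all probes fell. In D3MO 7 of 7 fell, against 1.99% of all probes, and 0 member probes rose in either knockdown. The members were taken from these calls, so nothing is read from the contrast with the background. In D1D2MO the 3 other probes passed the threshold on adjusted p and missed the one on fold.

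The disc rim gene prph2b had the lowest values of the 4 genes. Its single listed probe, A_15_P102875, had a log2 fold change of -1.04 in D1D2MO (SE 0.146, 95% interval -1.38 to -0.71). In D3MO the same probe was at -2.22 (SE 0.146, 95% interval -2.55 to -1.88). On a linear scale the prph2b transcript was left at 48.5% of the SCMO level in D1D2MO and at 21.5% in D3MO, with 95% intervals of 38.3% to 61.3% and 17.0% to 27.2%. Counted from the lowest log2 fold change of all 20080 probes, this probe had rank 22 in D1D2MO and rank 31 in D3MO.

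The partner genes rom1a and rom1b, which encode the ROM1 subunits of the disc rim complex, had values close to each other. The brightest rom1b probe, A_15_P112053, had a log2 fold change of -0.62 (SE 0.0863) in D1D2MO and -1.76 (SE 0.0863) in D3MO. These values leave 65.0% (95% interval 56.6% to 74.6%) and 29.5% (25.7% to 33.9%) of the SCMO level. The brightest rom1a probe, A_15_P666916, stood at -0.56 (SE 0.0826) in D1D2MO, or 68.0% of the SCMO level (59.5% to 77.7%), and this change of 1.47-fold was under the fold threshold. In D3MO it was at -1.74 (SE 0.0826), which leaves 30.0% of the SCMO level (26.3% to 34.2%). The other rom1a probe, A_15_P278491, did fall in D1D2MO, at -0.70 (SE 0.0913), and was at -1.60 (SE 0.0913) in D3MO. Hence rom1a counts as a gene that fell in D1D2MO by 1 of its 2 probes.

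The retinoschisin gene rs1a had the smallest SE of the 4 genes, with 1 probe, A_15_P113767, at an average log2 intensity of 12.51. Its log2 fold change was -0.51 (SE 0.0488, 95% interval -0.62 to -0.40) in D1D2MO and -1.55 (SE 0.0488, 95% interval -1.66 to -1.44) in D3MO. The rs1a transcript was therefore left at 70.3% of the SCMO level in D1D2MO (65.0% to 76.0%) and at 34.1% in D3MO (31.6% to 36.9%). The D1D2MO value, a 1.42-fold difference, missed the fold threshold, so rs1a was the 1 gene of the 4 that was not called in D1D2MO.

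**Figure D1:**
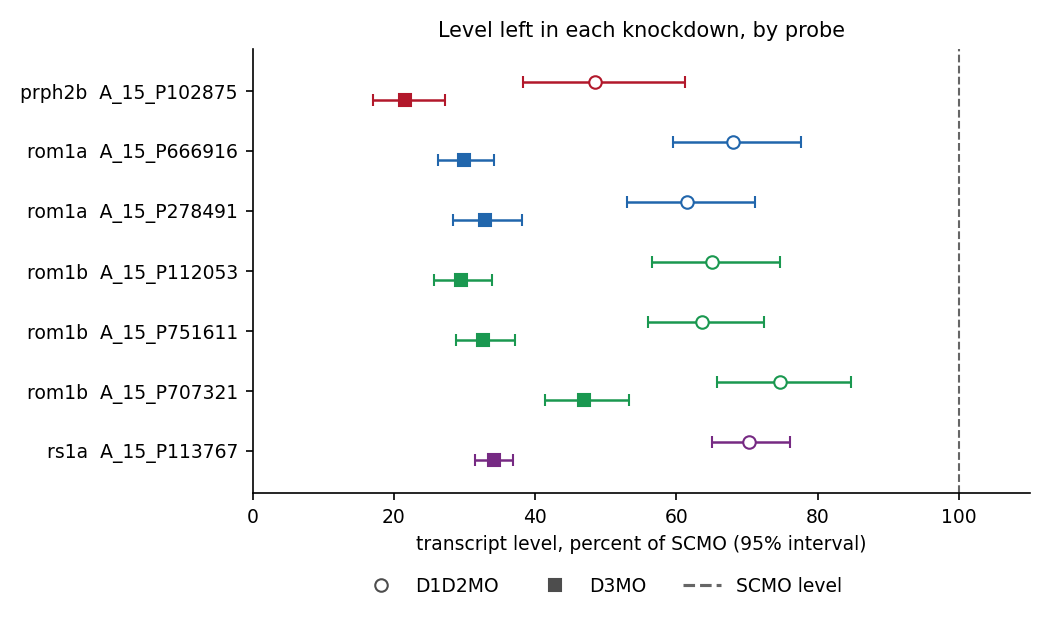
Transcript level of each probe as a percent of the SCMO level (horizontal axis, dashed line at 100%), with open circles for D1D2MO, filled squares for D3MO and bars for the 95% interval of the authors' fit. All 7 probes are below SCMO in both knockdowns, and prph2b has the least left, at 48.5% and 21.5%. The probes were chosen by their changes in these comparisons, so nothing is read from the gap between the knockdowns.

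The order of the 4 genes, by the brightest probe of each, was prph2b, rom1b, rom1a and rs1a in both knockdowns, from the lowest to the highest log2 fold change. Neighbours in this order had 95% intervals that overlap, in D1D2MO and in D3MO. The ends of the order did not overlap, since prph2b was lower than rs1a by 0.54 on the log2 scale in D1D2MO and by 0.66 in D3MO. The values of rom1a and rom1b differed by 0.07 and 0.02. Below prph2b the order depended on the choice of probe. By the mean over all listed probes, rom1a was at -0.63 and rom1b at -0.57 in D1D2MO, which turns their order. In D3MO these means were -1.67 for rom1a and -1.49 for rom1b, which places rs1a, at -1.55, between them. The prph2b interval was the widest of the 4, with an SE of 0.146 against 0.0488 for rs1a, and no second prph2b probe was listed.

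Between the knockdowns, D3MO was lower than D1D2MO for all 7 probes, with a median log2 fold change of -1.04 and a range from -1.18 to -0.67. All 7 were called in this comparison, where 0.782% of all probes were called as lower in D3MO. The fold change in this comparison is the difference of those against SCMO, to within 5.0e-08 for every probe, and so is not a separate result. The 4 arrays that paired the knockdowns directly were not analysed apart. By the brightest probe the 4 genes stood close together here, with rom1a at -1.18 (SE 0.0798), prph2b at -1.17 (SE 0.141), rom1b at -1.14 (SE 0.0833) and rs1a at -1.04 (SE 0.0471). Their 95% intervals overlap in every pair. In D3MO the transcripts were thus left at 44.1% (rom1a), 44.4% (prph2b), 45.4% (rom1b) and 48.5% (rs1a) of their D1D2MO level. This closeness depends on the probe. The other rom1a probe left 53.6% and the other rom1b probes 51.3% and 62.9%. For the dimmest rom1b probe the 95% interval, -0.85 to -0.49, does not overlap that of rs1a, -1.15 to -0.93.

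How the fall divides between the knockdowns was described by the log2 fold change in D1D2MO as a percent of that in D3MO. Both numbers rest on the same SCMO pools. For prph2b this share was 47.2% (SE 5.58). It was 35.3% (SE 4.24) for rom1b, 32.8% (SE 2.74) for rs1a and 32.0% (SE 4.15) for rom1a. Over the 392 other probes that fell in D3MO the share had a median of 47.5%, with quartiles of 38.4% and 59.4%. The prph2b value sat at the middle of these probes, with 49.2% of them below it, while 19.9%, 14.0% and 12.5% of them lay below rom1b, rs1a and rom1a. The second rom1a probe had a share of 43.8% (SE 4.84), so the place of rom1a depends on the probe. The other rom1b probes were at 40.4% (SE 4.23) and 38.8% (SE 6.22).

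**Figure D2:**
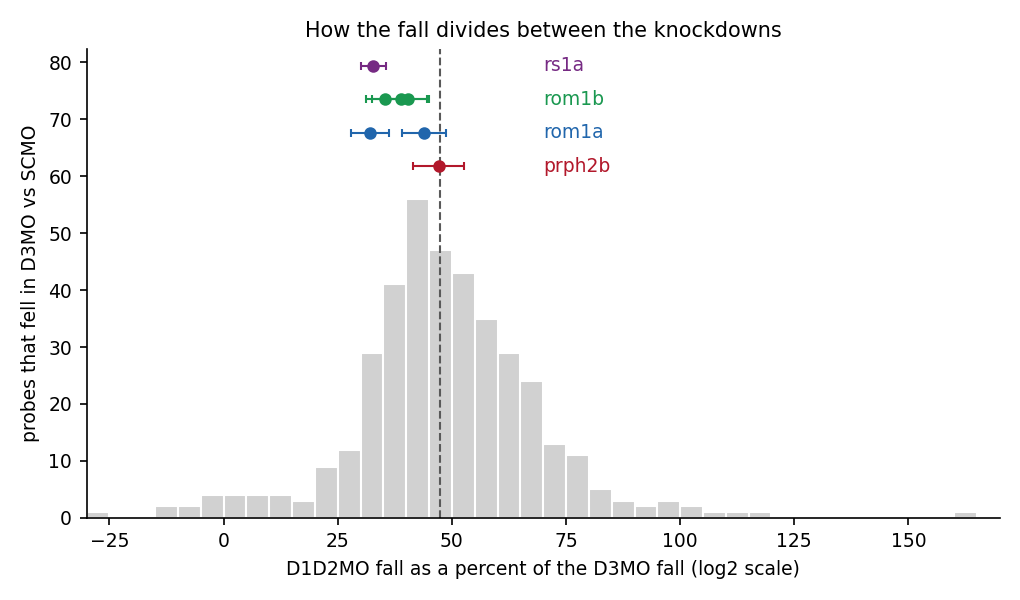
Histogram of the D1D2MO fall as a percent of the D3MO fall on the log2 scale (horizontal axis) for the 392 other probes that fell in D3MO (vertical axis, number of probes), with the 7 member probes above it, bars of 1 SE and a dashed line at the median of 47.5%. The prph2b point lies on the median and the rom1a, rom1b and rs1a points lie to its left, between 32.0% and 43.8%.

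Probes of 1 gene did not always give the same size. The 3 rom1b probes, from the brightest to the dimmest, had average log2 intensities of 8.89, 8.58 and 7.50. Their log2 fold changes in D3MO were -1.76, -1.61 (SE 0.0798) and -1.09 (SE 0.0791), and the 95% interval of the dimmest, -1.27 to -0.91, overlaps neither of the others. In D1D2MO the same probes were at -0.62, -0.65 and -0.42, and the dimmest, A_15_P707321, missed the fold threshold. Nearest to that threshold in D1D2MO were A_15_P112053 of rom1b just inside it, at -0.62, and A_15_P666916 of rom1a just outside it, at -0.56. For the 2 rom1a probes, with average log2 intensities of 8.01 and 7.85, the D3MO intervals overlap, and the range between probes was 0.135 in D3MO against 0.670 for rom1b.

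In D3MO the brightest probe also gave the largest fall in many other genes. Of 72 other named genes with several listed probes that all fell in D3MO, the brightest probe had the largest fall in 57, or 79.2%, and the median range between probes of a gene was 0.126 on the log2 scale. Many of these genes had only 2 probes, so part of this share would arise with no link to intensity. The ranges ran from 0.0021 to 1.63. In most of these genes the brightest probe thus had the largest fall in D3MO, and a link to intensity was not tested. The part of intensity in the difference between the rom1b probes was not tested either. In D1D2MO the other genes were not counted in this way. There the brightest probes of rom1a and rom1b did not have the largest fall. For rom1a the brightest was at -0.56 against -0.70 for its dimmer probe, with 95% intervals that overlap. For rom1b the brightest was at -0.62 and the next at -0.65, while the dimmest had the smallest fall, at -0.42. A further listed probe carries a GenBank accession that the gene table does not hold, and the study's supplementary list names it rom1a. It is left out of the counts above. It had an average log2 intensity of 7.09, and its log2 fold changes were -0.42 (SE 0.0612) in D1D2MO and -0.88 (SE 0.0612) in D3MO, where it passed both thresholds. Its 95% interval in D3MO, -1.03 to -0.74, overlaps that of neither rom1a probe above. The small range between the rom1a probes thus holds only where this probe is left out. Whether any probe also binds the transcript of the paralogue was not tested.

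**Figure D3:**
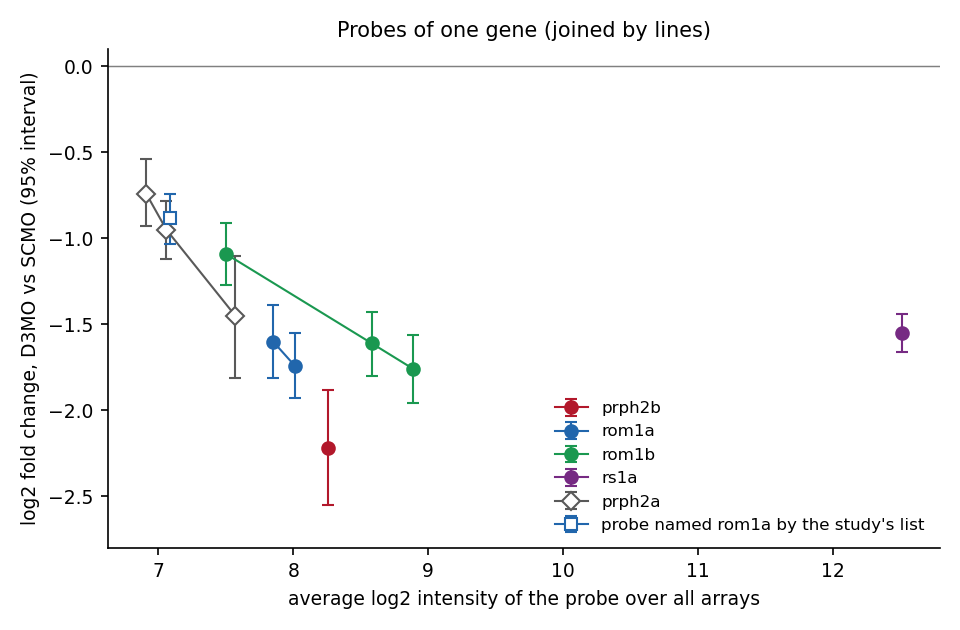
Log2 fold change in D3MO against SCMO (vertical axis, bars for 95% intervals) by the average log2 intensity of the probe over all arrays (horizontal axis), with probes of 1 gene joined by lines. Within rom1b, rom1a and the paralogue prph2a the dimmest probe has the smallest fall, and the probe that the study's list names rom1a, drawn as an open square, is at -0.88. Intensities of different genes are not comparable.

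Among other genes of outer segment structure, 3 of the 23 in a list of disc, ciliary, polarity and transporter genes carried a named probe. All 3 fell in D3MO and 1 of them, prph2a, in D1D2MO, while 0 rose. A gene had a name here only where the authors had listed a probe of it as changed, so counts among named genes are high by construction, and list members without a named probe cannot be read as unchanged. Of all 333 named genes 18.6% fell in D1D2MO and 59.8% in D3MO, counted in the same way by any of their probes, and 1.80% and 30.6% rose. The paralogue prph2a (NM_131566), the other zebrafish peripherin-2 gene, had log2 fold changes of -0.78 (SE 0.152) in D1D2MO and -1.45 (SE 0.152) in D3MO by its brightest probe. Its dimmer probes were at -0.60 and -0.54 in D1D2MO and at -0.95 and -0.74 in D3MO. By the brightest probe the D1D2MO change of prph2a was 53.3% (SE 8.83) of its D3MO change.

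The prominin gene prom1b (NM_198071), whose mammalian relative marks the membrane evaginations from which new discs arise, fell in D3MO at -1.21 (SE 0.0445). In D1D2MO it was at -0.27 (SE 0.0445), under the fold threshold. The Crumbs gene crb2b (NM_001045162), which encodes an apical polarity protein of photoreceptors, likewise fell in D3MO at -1.24 (SE 0.0498) and was at -0.34 (SE 0.0498) in D1D2MO. The D1D2MO change was 27.7% (SE 3.55) of the D3MO change for crb2b. For prom1b it was 22.7% (SE 3.31) by the brightest probe and 32.3% (SE 9.97) by the other, which lies between the values of rom1a and rs1a. Retinoschisin binds the retinal sodium pump, and of the 6 genes listed for that pump and for the photoreceptor calcium channel 1 had a named probe. This was the pump subunit atp1b2b (NM_131838), which fell in D3MO at -1.08 (SE 0.106) and was at -0.45 (SE 0.106) in D1D2MO, under the fold threshold, a share of 41.5% (SE 8.37).

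The named genes nearest to each member were found by the distance between their log2 fold changes in D1D2MO and D3MO, over 329 other genes and these comparisons, which share the SCMO pools. Nearest to prph2b were the rod transducin gamma gene gngt1 (-2.25 in D3MO, distance 0.0584), the cone arrestin arr3b (distance 0.0707) and the cone opsin kinase grk7a (distance 0.104). For rom1b they were the rod arrestin sagb (-0.61 in D1D2MO and -1.80 in D3MO, distance 0.0387), the recoverin gene rcvrn2 (distance 0.0625) and the pyrophosphatase ppa1a (distance 0.140). For rom1a they were sagb (distance 0.0783), rcvrn2 (distance 0.131) and the retinol-binding protein gene rbp4l (distance 0.195). For rs1a they were rcvrna, another recoverin gene (-0.49 and -1.39, distance 0.159), lrit3a, which encodes a membrane protein of retinal synapses (distance 0.165), and rbp4l (distance 0.191). Between the members, rom1a and rom1b were 0.0699 apart. Of the other named genes 0 lay nearer to rom1a than rom1b did, and 2 lay nearer to rom1b than rom1a did. In contrast, prph2b was 0.620 from rom1b, and 26 other named genes lay nearer to prph2b. All these distances use the brightest probe of each gene. By its other probe rom1a was at -0.70 in D1D2MO and -1.60 in D3MO, close to rbp4l at -0.69 and -1.60. The nearest genes of rom1a thus depend on the probe.

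**Figure D4:**
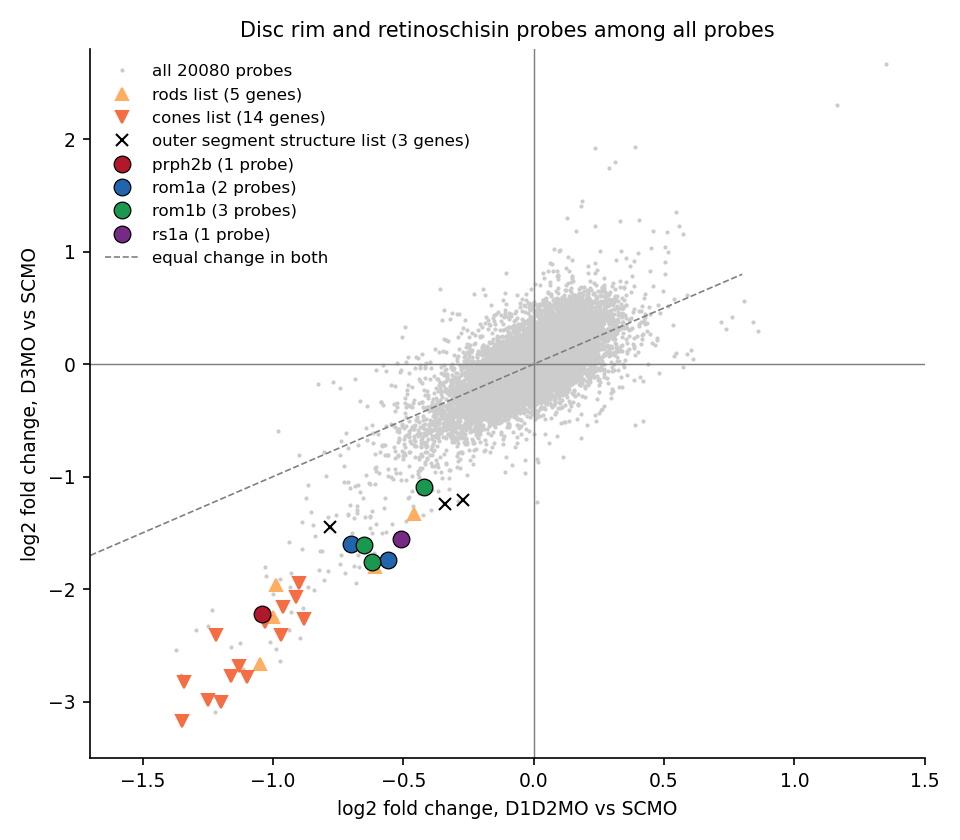
Log2 fold change against SCMO in D1D2MO (horizontal axis) and in D3MO (vertical axis) for all 20080 probes (grey), the named rod, cone and outer segment structure genes by their brightest probe, and the 7 member probes (circles), with a dashed line where both changes are equal. The members lie below the dashed line in the lower left, prph2b at -1.04 and -2.22 and the other 3 genes nearer to the centre. By the brightest probe all 4 genes lie within the rod ranges, -1.05 to -0.46 in D1D2MO and -2.67 to -1.33 in D3MO. Only prph2b also lies within the cone ranges, -1.35 to -0.88 and -3.17 to -1.95.

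Photoreceptor markers moved with these genes. Of a list of 12 rod genes, 5 had a named probe, and 4 of these fell in D1D2MO and 5 in D3MO, with values from -1.05 to -0.46 and from -2.67 to -1.33. Of 21 cone genes, 14 had a named probe and 14 fell in each knockdown, with values from -1.35 to -0.88 and from -3.17 to -1.95. The named genes are a selected set, and these counts stand beside the 18.6% and 59.8% of all named genes that fell. The share of the D3MO change seen in D1D2MO had a median of 39.3% over the rod genes (range 33.8% to 50.7%) and 42.5% over the cone genes (range 38.7% to 50.6%). The prph2b value of 47.2% lay inside both ranges. The brightest rom1b probe, at 35.3% (SE 4.24), lay inside the rod range and below the cone range, and those of rs1a and rom1a lay below both. The other rom1a probe, at 43.8%, and the other rom1b probes, at 40.4% and 38.8%, lay inside both. The brightest-probe values of rs1a and rom1a, 32.8% and 32.0%, were less than 1 SE below the lowest rod gene, sagb, at 33.8% (SE 4.02), and a second probe of the rod arrestin saga was lower than both members, at 23.9% (SE 7.19). Expression in a pool of heads cannot tell fewer photoreceptors from less RNA in each of them.

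Genes listed as markers of other eye cells moved in part. The pools were whole heads, so a change in a listed gene cannot be assigned to the cell type of its list. Whether these genes are also expressed in other cells of the head was not tested. Of all 333 named genes 59.8% fell and 30.6% rose in D3MO, so counts among them are high by construction. In D3MO 3 of 3 named genes fell in a list of 8 for the retinal pigment epithelium, with values from -1.13 to -0.64. The same held for 3 of 3 in a list of 10 for bipolar and amacrine cells, from -1.81 to -0.59. Of 3 named Muller glia genes in a list of 5, 1 fell and 1 rose. The 1 named ganglion cell gene in a list of 6 was at -0.49 and was not called. Outside the retina, 2 of 2 named erythroid genes in a list of 6 rose in D3MO, at 0.81 and 2.31, and of 6 named skeletal muscle genes in a list of 8, 4 rose and 1 fell. Of 4 named lens genes in a list of 8, 3 fell and 1 rose. Fewer of these genes passed the call in D1D2MO, where 18.6% of all named genes fell and 1.80% rose. There 2 of the 3 genes listed for bipolar and amacrine cells fell, cplx4a at -1.03 and cabp2a at -0.84. The other, gad1b, was at -0.38 and was not called. In D1D2MO 1 gene fell in each of the lists for the pigment epithelium (rpe65a, -0.67), the lens (crybgx, -0.68), Muller glia (glula, -0.64) and skeletal muscle (pvalb4, -0.80). The embryonic globin gene hbbe3 rose by 1.16 in D1D2MO and the muscle actin gene acta1b by 0.76. The part of such shifts in the values of the 4 genes was not tested.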

How the data were processed

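Total RNA from pools of 20 heads was amplified from oligo-dT primers, labelled and hybridised to Agilent 4x44k zebrafish arrays with 2 colours. The authors dropped spots whose signal stayed under background plus 2 standard deviations of the local background on all arrays. They applied a normal-exponential background correction and within-array loess, and fitted linear models with empirical Bayes in limma (no version is stated). The authors' deposited tables were 4. In the first are the log2 fold change and the deposited p-value, without adjustment, of 20080 probes in 3 comparisons, 26 control spots included. The other 3 hold the listed probes (144, 569 and 243), with a deposited average log2 intensity and 2 scores of the fit (t and log-odds). A probe was listed where it passed 1.5-fold and its p before adjustment was below 0.05. These tables hold the authors' comparisons and no values per array, so no fit was made anew. The paper states that raw array data were deposited too, and those were not analysed here.

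The t was recovered from each p-value with 7.79 degrees of freedom, the value that all listed probes share, the SE as log2 fold change over t, and the Benjamini-Hochberg adjustment was repeated on all probes. The deposited p-values of the lists and of the full table differed by at most 0.425%. Against the SE from the deposited t of the listed probes, the recovered SE differed by at most 0.0566%. The recovery and the calls were also run on simulated data, made and read with the same degrees of freedom. That run checks the arithmetic and cannot show whether the degrees of freedom or the SE suit the fit. Probes were named by RefSeq accession, without version, in a gene table of assembly GRCz12tu. Of 625 listed probes 501 had a RefSeq accession, and the gene table gave a symbol to 478 of these probes. No coordinates or sequences were used. The value of a gene is that of its brightest listed probe. Members, gene lists and the rule for named genes (list genes with a listed probe and the 3 nearest genes per member) were chosen with earlier results of these data known. Alternatives were another fold or p threshold, centring, leaving out control spots, a test against a 1.5-fold change and the mean over probes. Python 3.11.15, numpy 2.4.6, scipy 1.17.1, pandas 2.3.3 and matplotlib 3.10.9 were used.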

Additional observations from a re-analysis of the deposited data

How the results depend on the processing

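Of 43 values recomputed under an alternative, 31 moved by less than 1 SE (or, for counts, less than 1.5 times), 12 moved by more and 0 changed sign. The counts of member probes are descriptions, since the members were chosen on these values. With a fold threshold of 2, 1 member probe of 7 was past the threshold in D1D2MO, that of prph2b, among 28 of all 20080 probes, and 4 were lower in D3MO than in D1D2MO, among 58. With adjusted p taken against a 1.5-fold change instead of no change these counts were 0 among 8 and 3 among 45. Taking the mean over all listed probes of a gene gave -1.49 for rom1b in D3MO against SCMO, -0.92 for rom1b and -1.04 for rom1a in D3MO against D1D2MO, and a D1D2MO share of the D3MO fall of 37.7% for rom1a. Where that share was taken from losses in percent of the SCMO level, it was 65.7% for prph2b, 45.7% for rom1a, 49.7% for rom1b and 45.1% for rs1a, as the linear scale compresses large falls by construction. No paired analysis was made because the tables used here hold no values per array or pool, and for the same reason no replicate was left out. Signal over background on single arrays was not analysed here, and how far it limits the size of each change was not tested.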
